A study of Mus musculus with 6 samples.

Results

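Neutrophil granule genes were followed across the cell types of the mouse spleen. The 10 genes were taken by symbol from the gene table of the libraries, which lists 32285 genes, and each symbol matched 1 row: Camp, Ngp, Ltf, Lcn2, Fcnb, Chil3, Mmp8, Elane, Prtn3 and Mpo. Single-cell RNA libraries of splenocytes came from wild-type C57BL/6 mice that were 6 weeks old when they began 7 weeks on either ND or MCDHFD. The titles write MCD for the second diet and the series presents the animals as models of MASH, a fatty liver disease with inflammation. There were 3 libraries per diet, each made from spleen pressed through a cell strainer with the droplet-based 10x 3′ v3.1 kit. The labels do not say whether a library is 1 animal, so every p-value below measures the spread between libraries, which may be technical. The question asked was whether monocytes gain granule genes on MCDHFD while neutrophils lose them.

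Neutrophils carry their antimicrobial proteins in granules that are filled in order during maturation in the bone marrow. Primary (azurophil) granules are filled first, at the promyelocyte stage, with myeloperoxidase and serine proteases. Specific granules follow at the myelocyte stage with lactoferrin, cathelicidin and lipocalin, and gelatinase granules come last. The transcripts of the early proteins are largely lost before the cell leaves the marrow, so a mature blood neutrophil holds the proteins with little of the message. The spleen also makes and stores granulocytes in mice, and the factors C/EBPε and PU.1 are among those that drive granule gene transcription.

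In mouse genome build GRCm38 (mm10), with the GENCODE annotation, each of the 10 is a protein-coding gene. Camp, the cathelicidin antimicrobial peptide, lies at chr9:109847379-109849617 on the minus strand. Ngp, neutrophilic granule protein, lies at chr9:110419747-110423012 on the plus strand, and Ltf, the iron-binding lactoferrin, at chr9:111019271-111042767 on the plus strand, so these 3 specific granule genes share a stretch of chromosome 9. Lcn2, the siderophore-binding lipocalin, is at chr2:32384633-32388252 (minus), and Fcnb, a ficolin that recognises microbial sugars, at chr2:28076378-28084885 (minus). Chil3, the chitinase-like lectin Ym1, is at chr3:106147554-106167564 (minus). Its near-identical relative Chil4 means that reads may have been split or dropped between them, so its absolute level is uncertain. Mmp8, neutrophil collagenase, is at chr9:7558456-7568485 (plus). Among the primary granule genes, the serine proteases Prtn3 (chr10:79874476-79883174) and Elane (chr10:79886247-79888215) are neighbours on the plus strand, and Mpo, myeloperoxidase, is at chr11:87793581-87804413 (plus).

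The 250 bases before the annotated RefSeq start (GRCm38.p6) are printed for 5 members, because these 5 stand for the patterns described below: Ngp and Ltf for the genes that were lower in neutrophils, Chil3 and Mmp8 for the pair that was higher in monocytes, and Elane for the primary granule genes. Each runs 5′ to 3′ on the gene's strand, and capitals mark a match to the C/EBP letters TTNNGNAA or to the PU.1 letters GAGGAAGT on either strand. Ngp is chr9:110419558-110419807 (plus), Ltf chr9:111019042-111019291 (plus), Chil3 chr3:106167565-106167814 (minus), Mmp8 chr9:7558179-7558428 (plus) and Elane chr10:79886062-79886311 (plus).
Ngp: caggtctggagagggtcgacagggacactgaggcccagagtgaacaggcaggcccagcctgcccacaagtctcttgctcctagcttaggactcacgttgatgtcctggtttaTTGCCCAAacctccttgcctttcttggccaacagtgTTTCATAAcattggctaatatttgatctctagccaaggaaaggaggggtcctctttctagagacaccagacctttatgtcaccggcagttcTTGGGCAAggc
Ltf: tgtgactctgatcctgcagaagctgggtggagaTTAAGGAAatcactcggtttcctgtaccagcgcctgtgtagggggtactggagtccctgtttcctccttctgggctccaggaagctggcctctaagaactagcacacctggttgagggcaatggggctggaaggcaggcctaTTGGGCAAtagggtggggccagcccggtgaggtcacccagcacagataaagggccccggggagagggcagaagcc
Chil3: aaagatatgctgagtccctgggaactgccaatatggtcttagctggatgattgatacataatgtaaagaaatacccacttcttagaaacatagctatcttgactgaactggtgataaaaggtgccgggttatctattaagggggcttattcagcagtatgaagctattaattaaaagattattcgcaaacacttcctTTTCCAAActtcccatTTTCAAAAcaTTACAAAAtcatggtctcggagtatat
Mmp8: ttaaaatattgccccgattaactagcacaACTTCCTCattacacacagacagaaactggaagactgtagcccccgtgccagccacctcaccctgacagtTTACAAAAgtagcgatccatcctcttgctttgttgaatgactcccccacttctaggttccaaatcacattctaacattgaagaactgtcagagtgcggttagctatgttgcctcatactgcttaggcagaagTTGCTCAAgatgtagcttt
Elane: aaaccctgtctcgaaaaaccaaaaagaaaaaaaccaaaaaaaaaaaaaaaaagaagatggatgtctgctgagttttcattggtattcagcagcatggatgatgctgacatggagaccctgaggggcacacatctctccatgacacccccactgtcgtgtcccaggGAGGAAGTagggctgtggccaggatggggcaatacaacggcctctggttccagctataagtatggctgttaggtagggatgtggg
The C/EBP letters were found in 6 of the 10 members, Ngp, Ltf, Lcn2, Fcnb, Chil3 and Mmp8, against 36.8% of 32851 promoters of the same length. The PU.1 letters were found in 4, Mmp8, Elane, Prtn3 and Mpo, against 2.44% of promoters. Ngp and Chil3 each held 3 C/EBP matches. Mmp8 alone among the 10 held both. A match describes the letters in the window and not a site in use.

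Cells with at least 1000 UMIs (unique molecular identifiers, 1 per captured transcript) and at most 10% mitochondrial UMIs were sorted by marker genes. Neutrophils had at least 5 UMIs of S100a8 and 1 of Csf3r. Monocytes and macrophages had at least 1 of Csf1r and 3 of Lyz2 and none of Csf3r. B cells (at least 2 of Cd79a) and T cells (at least 1 of Cd3e) served as a background for free RNA. Between 3278 and 6625 cells were kept per library, with a median of 4462 to 6186 UMIs. A cell that met more than 1 gate was left out (1.95 to 7.19% of cells). The neutrophil gate held 416, 130 and 146 cells in ND replicates 1, 2 and 3 and 325, 413 and 97 in MCDHFD replicates 1, 2 and 3, and all values below follow that order. The monocyte/macrophage gate was small, with 53, 47 and 49 cells on ND and 96, 140 and 48 on MCDHFD. No pair of libraries shared more than 18 barcodes.

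ND replicate 2 and MCDHFD replicate 3 stand apart: they were deposited with filtered barcode lists and headers of another Cell Ranger version than the other 4. The form of the list was therefore a term of the models, except where another model is named, and results are given without these libraries where they depend on them. The neutrophil gate was checked on markers it did not use. Retnlg was 2684 to 3922 CPM (UMIs of a gene per 1000000 UMIs of the gate) on ND and 4571 to 5185 CPM on MCDHFD, against at most 6.10 in B cells. Ly6g was 328 to 445 CPM on ND and 85.7 to 160 CPM on MCDHFD, against at most 3.55 in B cells. The summed level of 11 neutrophil markers, among them the gate genes S100a8 and Csf3r, was 204071 to 248183 CPM on ND and 118171 to 162505 on MCDHFD. The monocyte/macrophage gate carried neutrophil markers unevenly, at 16818, 3404 and 162 CPM on ND and 238, 957 and 1482 on MCDHFD. That spread bears on every granule gene in this gate.

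On ND, each of the 10 genes had its highest level in neutrophils, and in none did the neutrophil libraries overlap those of monocytes. Camp reached 26.8 times the monocyte/macrophage mean and Lcn2 33.6 times. Below neutrophils, each gate overlapped the next in the order of means for Camp, Ngp, Ltf, Lcn2, Fcnb and Mpo. Within libraries, Camp ran from monocytes to B cells to T cells in 3 of 3. Ngp, Ltf and Lcn2 were higher in B than in T cells in 3 of 3. They were higher in monocytes than in B cells in only 2, 2 and 1. On MCDHFD the order changed for Chil3, whose mean was 1.37 times higher in monocytes than in neutrophils, although the libraries overlapped and only 2 of 3 were higher. Mmp8 remained highest in neutrophils, but the ratio to monocytes was 33.1 on ND and 3.95 on MCDHFD. The plot of levels by gate shows these positions for each library.

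**Figure D1:**
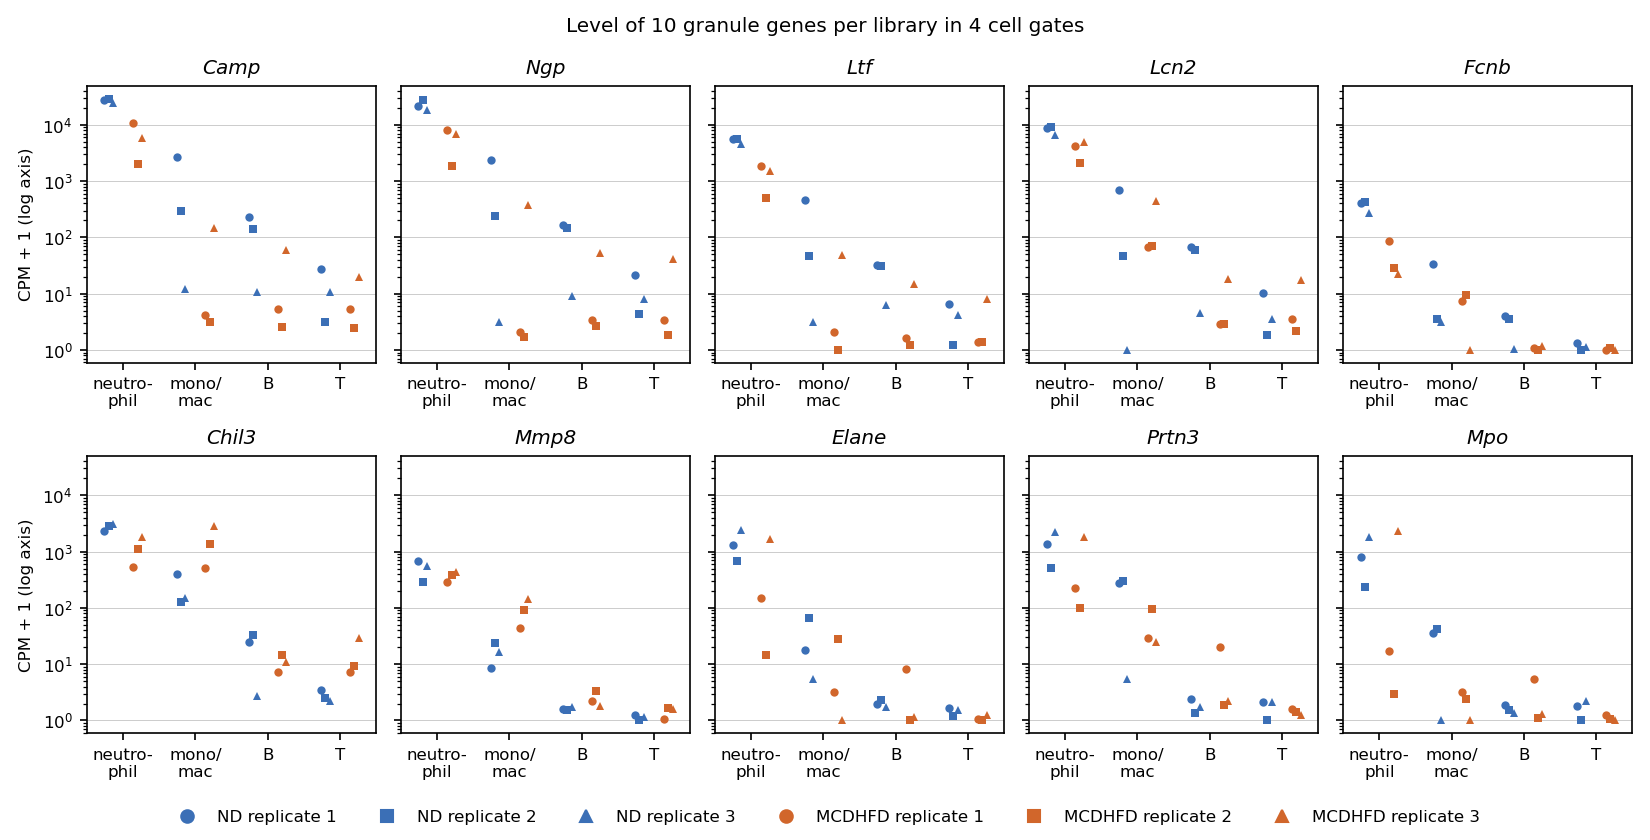
Level of the 10 granule genes in the 4 gates, as CPM + 1 of the summed UMIs of each gate on a log axis, with 1 point per library (colour for diet, shape for replicate). The neutrophil points of Camp, Ngp, Ltf, Lcn2, Fcnb and Chil3 separate by diet, with MCDHFD lower, while in monocytes/macrophages the Chil3 and Mmp8 points separate with MCDHFD higher.

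In neutrophils, 6 of the 10 genes fell on MCDHFD at an adjusted p under 0.05 (edgeR quasi-likelihood test, Benjamini-Hochberg adjustment over all genes), against 8.81% of the 8343 genes tested. They were Camp, Ngp, Ltf, Lcn2, Fcnb and Chil3. All 10 fitted differences were below 0, from -0.61 to -5.23 on the log2 scale, where the median of all genes was -0.01. In each of the 6 genes every MCDHFD library lay below every ND library.

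Camp measured 28040, 29268 and 24075 CPM on ND and 10561, 2050 and 5836 CPM on MCDHFD. The means were 27128 ± 2714 and 6149 ± 4264 (SD, n = 3 each), and the fitted difference was -2.30 (SE 0.545, adjusted p = 0.0398, edgeR), a 4.91-fold fall. ND libraries were close to one another, and the MCDHFD libraries spread over a wider range. Ngp, at 21266, 27876 and 18027 CPM on ND, was 7986, 1873 and 6786 CPM on MCDHFD, a change of -2.17 (SE 0.495, adjusted p = 0.0355, edgeR). Ltf was 5570, 5709 and 4574 CPM against 1881, 491 and 1483 CPM, a change of -2.21 (SE 0.463, adjusted p = 0.0278, edgeR). MCDHFD replicate 2 was the lowest library for Camp, Ngp, Ltf and Lcn2. Lcn2 was 8943, 9075 and 6714 CPM on ND and 4178, 2120 and 4922 CPM on MCDHFD. Its change of -1.34 (SE 0.322, adjusted p = 0.0409, edgeR) had the smallest size of the 6.

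Fcnb was 404, 432 and 273 CPM on ND and 84.2, 28.2 and 21.1 CPM on MCDHFD. It fell 9.06-fold (log2 -3.18, SE 0.496, adjusted p = 0.0177, edgeR), the largest fall among the 6. Chil3 was 2294, 2875 and 3073 CPM on ND and 540, 1118 and 1835 CPM on MCDHFD, a change of -1.54 (SE 0.322, adjusted p = 0.0278, edgeR). MCDHFD replicate 1 was the lowest here, unlike for Camp, Ngp, Ltf and Lcn2. Mmp8, which is also kept in specific granules, did not pass: its 687, 287 and 544 CPM on ND and 282, 383 and 434 CPM on MCDHFD overlapped, with a difference of -0.61 (SE 0.305, adjusted p = 0.24, edgeR).

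The primary granule genes did not pass either, and a few cells carried them. Elane was 1305, 683 and 2432 CPM on ND and 146, 13.7 and 1675 CPM on MCDHFD. Prtn3 was 1353, 501 and 2221 CPM against 221, 100 and 1822 CPM. Mpo, at 802, 234 and 1780 CPM on ND, was 15.8, 2.01 and 2316 CPM on MCDHFD. MCDHFD replicates 1 and 2 lay below every ND library for all 3 genes, and replicate 3 lay within or above the ND range. In MCDHFD replicate 3 a single cell supplied this: 1 cell with 1030 Elane UMIs, 1 with 1100 Prtn3 UMIs and 1 with 1424 Mpo UMIs, where the gate summed to 1030, 1120 and 1424. The fitted differences were -3.19 for Elane (SE 1.5), -2.22 for Prtn3 (SE 1.13) and -5.23 for Mpo (SE 2.65), with adjusted p of 0.21, 0.244 and 0.243 (edgeR). Neutrophils with at least 10 Elane UMIs numbered 16, 3 and 4 on ND and 3, 1 and 1 on MCDHFD.

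The 6 calls in neutrophils depended on the model and on single libraries. Without the term for the form of the barcode list, none of the 10 passed (Camp adjusted p = 0.095, Fcnb 0.0579, edgeR), and with the replicate number as a block, none passed either. None passed without ND replicate 1, without ND replicate 3 or without MCDHFD replicate 2, whereas without ND replicate 2 or MCDHFD replicate 3 Camp missed the threshold (0.0579 and 0.0535) and the 9 others passed, where 2060 of 9146 and 2038 of 9045 genes were called.

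**Figure D2:**
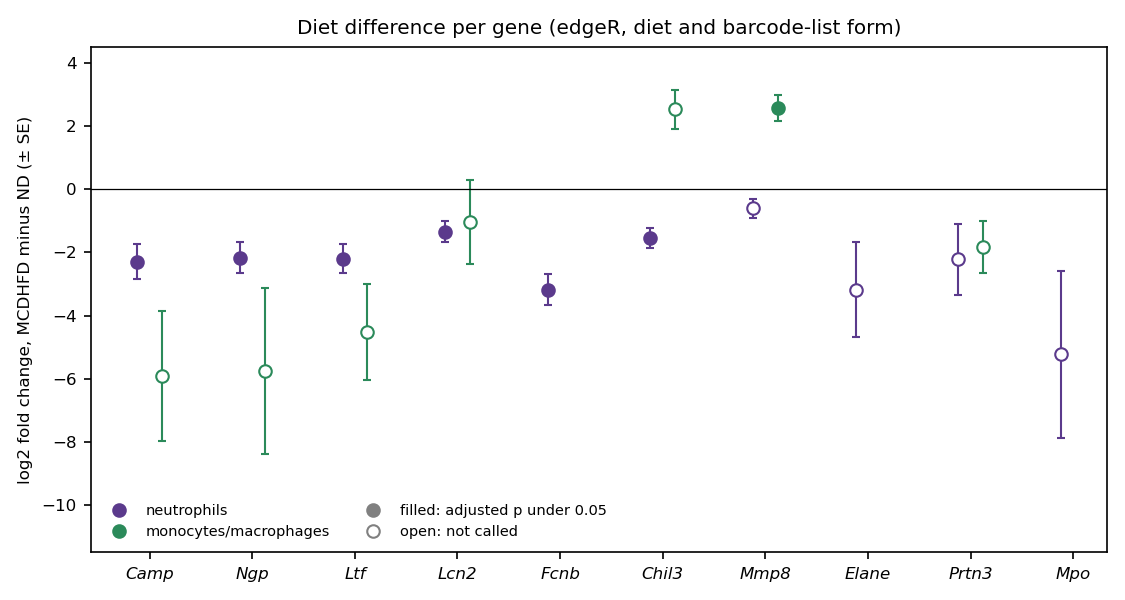
Fitted log2 difference MCDHFD minus ND, with bars of 1 standard error, for each granule gene in neutrophils and monocytes/macrophages (edgeR, 3 libraries per diet); filled points had an adjusted p under 0.05, and genes too low to be tested have no point. The neutrophil estimates lie below 0 for all 10 genes, and the monocyte/macrophage estimates lie above 0 for Chil3 and Mmp8.

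Other markers differed in the same gate. Of 13 monocyte or macrophage markers, 12 were tested in neutrophils, and 4 rose, 1 fell and 7 were not called, against 8.81% of 8343 genes called. Ccr2 was 6.38, 20.6 and 2.90 CPM on ND and 54.5, 280 and 132 CPM on MCDHFD. Ms4a6c was 15.8, 69.1 and 31.9 against 91.6, 322 and 169 CPM. Ccr2 was low on ND and could enter the test by its MCDHFD counts. The 4 of 12 therefore does not measure how these markers changed as a set. The summed 13 monocyte or macrophage markers, which Lyz2 dominates, went the other way, from 7013 to 9642 CPM on ND and 4614 to 6798 CPM on MCDHFD. The 6 T cell markers summed to 16.3, 15.5 and 29.7 CPM on ND and 60.9, 53.9 and 32.5 CPM on MCDHFD, with none of the 3 tested called. Hemoglobin and other erythroid markers summed to 39.9 to 1887 CPM on ND and 2097 to 19427 CPM on MCDHFD. The share of cycling neutrophils was 15.6, 15.4 and 10.3% on ND and 7.08, 5.08 and 7.22% on MCDHFD. A fit added after the data were seen left out neutrophils that held a Csf1r or Ccr2 UMI. In it 9 members passed, all lower, where 1941 of 6478 genes were called. These members included Camp at -1.70 (adjusted p = 0.00286, edgeR) and Chil3 at -2.27. Among neutrophils that were not cycling, Camp was 19980, 19538 and 19015 CPM on ND and 2956, 307 and 1732 CPM on MCDHFD. The part of the erythroid and T cell RNA in the differences was not tested.

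A sum over a gate cannot tell fewer expressing cells from less RNA per cell, but the counts per cell can. Most neutrophils held no Camp message and a minority held many copies. Of 1527 neutrophils, 1198 had no Camp UMI, 72 had 1 to 4, 6 had 5 to 19 (0.393%), 15 had 20 to 99 and 236 had 100 or more. Ngp and Ltf were also sparse in that range, with 7 and 5 cells between 5 and 19 UMIs. Lcn2 was graded instead: 416 neutrophils had none, 383 had 1 to 4, 375 (24.6%) had 5 to 19 and 216 had 100 or more. Mmp8 was graded as well and low, with 522 cells at 1 to 4 UMIs and none at 100 or more.

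**Figure D3:**
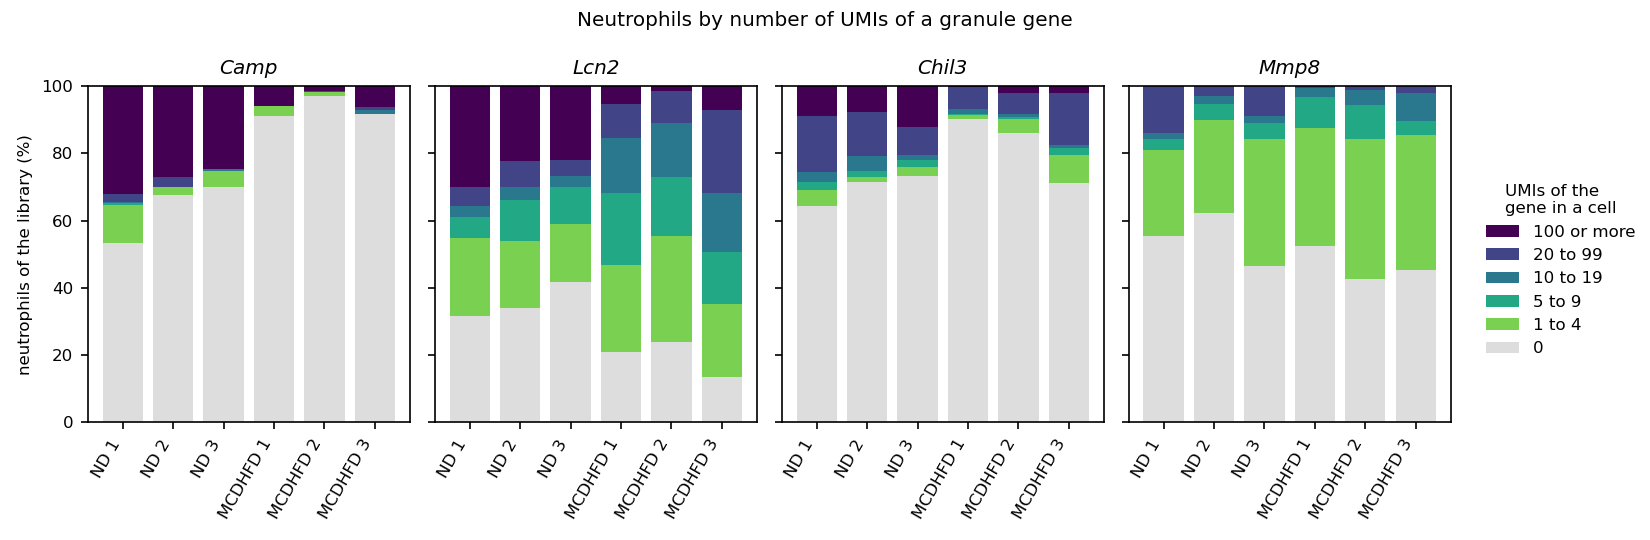
Percent of the neutrophils of each library (stacked bars) by their number of UMIs of Camp, Lcn2, Chil3 and Mmp8. Camp leaves an almost empty middle between cells without the message and cells with 100 or more copies, whereas Lcn2 fills it.

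The empty middle allowed a split at 10 Camp UMIs, a value chosen after these counts were seen, so the split is a description. Neutrophils with at least 10 Camp UMIs numbered 145, 39 and 37 on ND and 19, 7 and 8 on MCDHFD. They made up 34.9, 30.0 and 25.3% of the gate on ND and 5.85, 1.69 and 8.25% on MCDHFD, with no overlap. They held 99.9 to 100% of the Camp UMIs of the gate in each library. Of them, 143, 39 and 37 on ND and 19, 7 and 8 on MCDHFD also had at least 10 Ngp UMIs. These were large cells by RNA, with a median of 12874 to 20923 UMIs of all genes, against 2915 to 4400 in the other neutrophils.

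The Camp-high cells were selected on Camp, so their Camp level is bound by that choice. In them Camp was 43863, 46349 and 46322 CPM on ND and 50170, 33971 and 34875 CPM on MCDHFD, and Ltf was 8711, 9041 and 8796 against 8931, 8107 and 8845 CPM. Ngp was 33262, 44135 and 34680 against 37866, 30702 and 40075 CPM. Lcn2 was higher on MCDHFD in these cells, at 13724, 13956 and 12555 against 14406, 15087 and 16650 CPM. Fcnb was lower, at 601, 654 and 430 against 330, 380 and 117 CPM. The MCDHFD values rest on 7 to 19 cells per library.

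**Figure D4:**
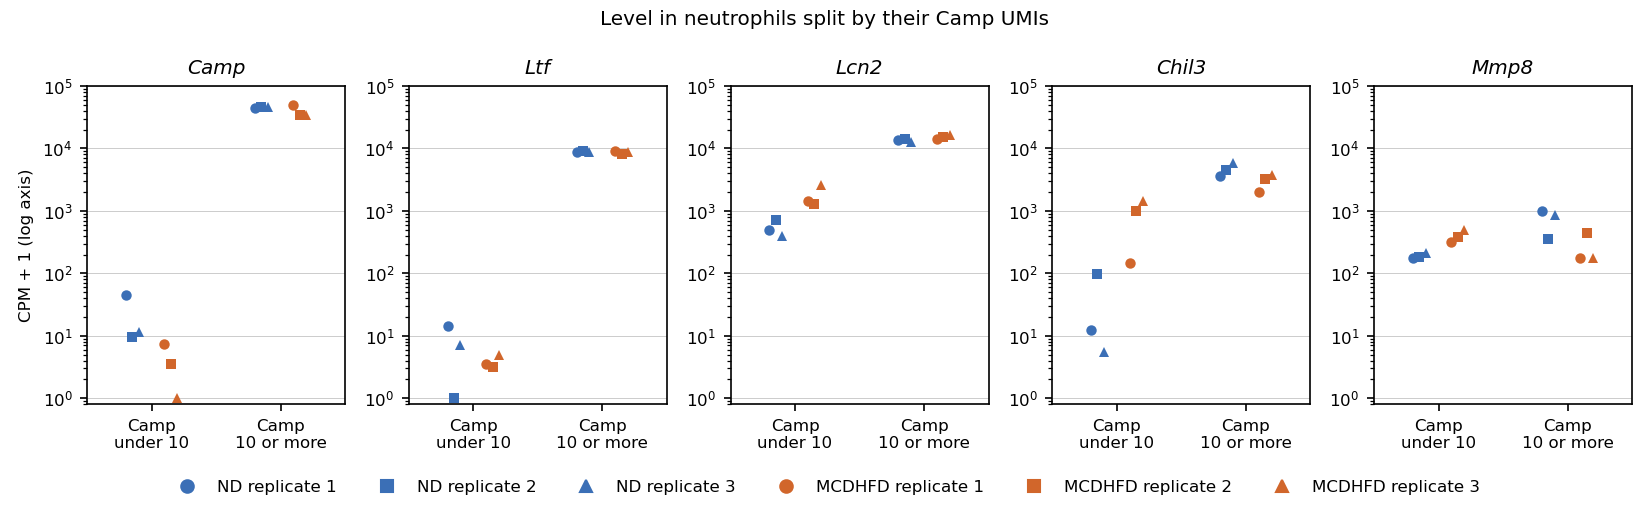
Level of Camp, Ltf, Lcn2, Chil3 and Mmp8 (CPM + 1, log axis) in neutrophils with fewer than 10 and with 10 or more Camp UMIs, 1 point per library. In the cells with fewer than 10, Lcn2, Chil3 and Mmp8 are higher in each MCDHFD library than in any ND library, while Ltf and Camp overlap between diets in the cells with 10 or more.

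In the neutrophils with fewer than 10 Camp UMIs, 3 members were higher on MCDHFD with no overlap between diets. Lcn2 was 485, 714 and 395 CPM on ND and 1453, 1288 and 2565 CPM on MCDHFD, with a median of 1, 1 and 0 UMIs per cell against 5, 3.5 and 8. Mmp8 was 175, 182 and 210 CPM on ND and 311, 378 and 486 CPM on MCDHFD. Chil3 was 11.1, 98.0 and 4.53 CPM on ND and 144, 978 and 1444 CPM on MCDHFD. These Camp-low cells supplied 1.96 to 2.90% of the gate's Lcn2 UMIs on ND and 27.5 to 57.1% on MCDHFD. A fit without the Camp-high cells, added after the data were seen, gave log2 differences of 1.78 for Lcn2, 5.19 for Chil3 and 1.10 for Mmp8, the opposite sign to the whole gate. None of the 8 members it tested passed, and 2 of 7520 genes did (edgeR).

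Chil3 in the Camp-low neutrophils was set beside UMIs of monocyte genes. Neutrophils with at least 10 Chil3 and fewer than 10 Camp UMIs numbered 0, 2 and 0 on ND and 9, 33 and 12 on MCDHFD, and every one had a UMI of Csf1r, Ccr2 or Ms4a6c. Of all cells in the neutrophil gate, 25.7, 28.5 and 34.2% on ND had a Csf1r or Ccr2 UMI, before Ms4a6c is counted. On MCDHFD the share was 35.7, 44.1 and 38.1%, higher without overlap. Among Camp-low cells with neither Csf1r nor Ccr2, Chil3 was 3.38, 0 and 0 CPM on ND and 3.46, 12.5 and 107 CPM on MCDHFD. In the same cells Lcn2 was 558, 776 and 506 against 1604, 1832 and 3894 CPM, and Mmp8 was 190, 230 and 201 against 364, 474 and 586 CPM. None of the 3 genes overlapped between diets in these cells, which may still hold Ms4a6c. Among Camp-high cells, Chil3 of at least 10 UMIs was common on both diets: 119 of 145, 31 of 39 and 32 of 37 cells on ND and 18 of 19, 5 of 7 and 6 of 8 on MCDHFD.

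After every cell was thinned to 1000 UMIs to set an equal depth, the share of neutrophils with a Camp UMI was 37.7, 31.5 and 28.1% on ND and 6.77, 1.69 and 8.25% on MCDHFD. The unthinned shares were 46.6, 32.3 and 30.1% and 8.92, 2.91 and 8.25%. The thinned share with Lcn2 was 53.8, 55.4 and 47.9% on ND and 57.2, 55.4 and 70.1% on MCDHFD, with the lowest MCDHFD and highest ND library almost equal, and unthinned it was 68.3, 66.2 and 58.2% against 79.1, 76.3 and 86.6%. So Lcn2 was found in as many or more neutrophils on MCDHFD while its summed level was lower. Neutrophils had a median depth of 3631 to 4535 UMIs. As background, T cells, with a median of 5656 to 8368, showed Camp in 0.134 to 3.27% of thinned cells and Lcn2 in 0 to 1.68%. Exact permutation tests of 3 against 3 libraries cannot go below p = 0.1, the value of the Camp share.

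Cxcr2, the chemokine receptor of mature neutrophils, was detected in 82.3 to 91.1% of the gate on ND and 82.5 to 94.8% on MCDHFD. Of the Camp-high cells, 120 of 145, 22 of 39 and 30 of 37 on ND and 13 of 19, 7 of 7 and 6 of 8 on MCDHFD had a Cxcr2 UMI. Camp in the Cxcr2-positive cells was 27732, 23658 and 24370 CPM on ND and 9583, 2688 and 7365 CPM on MCDHFD, so the lower level was also seen there. On ND the primary granule genes had their higher level in the Cxcr2-negative cells, which numbered 13 to 38 per library over both diets. Elane in them was 4520, 1793 and 8082 CPM on ND and 458, 57.6 and 0 CPM on MCDHFD, and in Cxcr2-positive cells it was 104, 13.2 and 5.18 CPM on ND and 98.3, 0 and 2145 CPM on MCDHFD. Mpo was 2916, 622 and 5918 against 70.7, 5.09 and 0 CPM in Cxcr2-negative cells, and 11.4, 0 and 3.11 against 7.43, 1.05 and 2965 CPM in Cxcr2-positive cells. In MCDHFD replicate 3 all Elane and Mpo UMIs thus lay in Cxcr2-positive cells, and the diets overlapped there. Mmp8 sat on the other side, at 943, 404 and 777 CPM in Cxcr2-positive and 1.74, 93.2 and 2.41 CPM in Cxcr2-negative cells on ND.

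In monocytes and macrophages, Chil3 and Mmp8 were higher on MCDHFD in every library, and Mmp8 passed the test. That made 1 of the 7 members tested, against 0.845% of the 6032 genes, and Fcnb, Elane and Mpo were too low to be tested. The low-count filter keeps a gene that is high enough in the libraries of 1 diet. Mmp8 was low on ND and could enter by its MCDHFD counts, so the 1 of 7 does not measure how the set changed. Mmp8 was 7.40, 23.1 and 15.3 CPM on ND and 43.1, 91.6 and 144 CPM on MCDHFD, from 4, 9 and 7 UMIs against 40, 132 and 55. It rose 5.94-fold (log2 2.57, SE 0.405, adjusted p = 0.0223, edgeR). Chil3 was 407, 126 and 149 CPM on ND and 515, 1387 and 2876 CPM on MCDHFD, with means of 227 ± 156 and 1593 ± 1194 (SD, n = 3). Its difference of 2.53 (SE 0.623) had an adjusted p of 0.0965 (edgeR) and did not pass. For Chil3 the MCDHFD libraries spread widely and replicate 1 was near ND replicate 1.

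The Mmp8 call was lost in the model of diet alone (adjusted p = 0.18, edgeR), with the replicate block (0.137), and when any 1 library other than MCDHFD replicate 1 was left out (Mmp8 adjusted p from 0.0567 to 0.174). Over these and the other alternatives tried, the Mmp8 difference stayed between 2.09 and 2.88 on the log2 scale.

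More single cells carried Chil3. Monocytes and macrophages with at least 10 Chil3 UMIs numbered 2, 2 and 0 on ND and 18, 36 and 21 on MCDHFD, which was 3.77, 4.26 and 0% of the gate against 18.8, 25.7 and 43.8%. The thinned share with a Chil3 UMI was 11.3, 6.38 and 14.3% on ND and 22.9, 28.6 and 60.4% on MCDHFD, and unthinned it was 30.2, 17.0 and 44.9% against 41.7, 50.7 and 62.5%. B cells, which should lack the gene, showed it in 0.260 to 0.663% of thinned cells. For Mmp8 the thinned shares were at the level of 1 or a few cells, 0 to 3.77% on ND and 1.04 to 8.33% on MCDHFD, and the unthinned ones were 5.66, 6.38 and 10.2% against 16.7, 24.3 and 35.4%, where B cells reached at most 0.523%.

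Cells with S100a8 remained in the gate and were not evenly spread: 4, 1 and 0 cells on ND and 2, 10 and 14 on MCDHFD had at least 5 S100a8 UMIs. Without them Chil3 was 94.9, 129 and 149 CPM on ND and 535, 955 and 1783 CPM on MCDHFD, and Mmp8 was 8.83, 24.2 and 15.3 against 44.9, 59.8 and 113 CPM. Lcn2 was then 15.4, 5.37 and 0 CPM on ND and 40.4, 29.5 and 113 CPM on MCDHFD. All 3 rose in that fit, Chil3 by 2.92 (adjusted p = 0.000306), Mmp8 by 2.09 (0.00634) and Lcn2 by 2.82 on the log2 scale (edgeR). They were 3 of the 4 members tested, where 108 of 5640 genes were called. Lcn2 and Mmp8 were low on ND and could enter the test by their MCDHFD counts. The 3 of 4 therefore does not measure how many of the 10 members rose. ND replicate 1 was the library that changed most, its Chil3 being 407 CPM with these cells and 94.9 CPM without.

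Ly6c2, a marker of the classical monocyte, was detected in 52.8, 51.1 and 53.1% of the gate on ND and 37.5, 32.1 and 45.8% on MCDHFD. Chil3 in the Ly6c2-positive cells was 588, 111 and 209 CPM on ND and 738, 2591 and 4490 CPM on MCDHFD. In the Ly6c2-negative cells it was 17.5, 165 and 42.4 against 260, 261 and 721 CPM, lower in level and also without overlap. Mmp8 in Ly6c2-positive cells was 10.8, 28.5 and 24 CPM on ND and 70.8, 184 and 238 CPM on MCDHFD. Thus both subsets showed the Chil3 difference, and the share of Ly6c2-positive cells was lower on MCDHFD.

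None of Camp, Ngp, Ltf, Lcn2 and Prtn3 passed in this gate. Camp was 2726, 295 and 11 CPM on ND and 3.23, 2.08 and 144 CPM on MCDHFD, Ngp 2378, 236 and 2.19 against 1.08, 0.694 and 382 CPM, and Ltf 468, 46.2 and 2.19 against 1.08, 0 and 47.1 CPM. In ND replicate 1, 2 cells held 99% of the Camp UMIs, and in ND replicate 2, 1 of 47 cells held all of them. The differences of -5.91 for Camp, -5.75 for Ngp and -4.52 for Ltf had adjusted p of 0.234, 0.348 and 0.223 (edgeR). Lcn2 was 690, 46.2 and 0 CPM on ND and 65.7, 68.0 and 450 CPM on MCDHFD, a difference of -1.04 (SE 1.33, adjusted p = 0.74, edgeR) that turned to 3.59 without ND replicate 1. Elane and Mpo were at most 64.2 and 41.1 CPM in any library. Prtn3 was 281, 295 and 4.38 CPM on ND and 28.0, 93.0 and 23.5 CPM on MCDHFD.

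Lymphocytes were taken as the free RNA background. None of the 9 members tested passed in B cells, where 3.6% of 13403 genes were called, and DESeq2 called 2 of them, Ngp and Ltf, lower. At an unadjusted p under 0.05, 3089 genes passed in B cells (edgeR). Camp in B cells was 229, 140 and 9.74 CPM on ND and 4.29, 1.56 and 59.6 CPM on MCDHFD. Of all Prtn3 UMIs, B cells held 0.445, 0.379 and 0.448% on ND and 24.3, 3.20 and 0.673% on MCDHFD. For Elane and Mpo they held 16.4 and 14.0% in MCDHFD replicate 1 and at most 1.34 and 0.820% in other libraries. Prtn3 differed by 3.01 in B cells (adjusted p = 0.16, edgeR) and by -2.22 in neutrophils. Whether B cells give a free RNA background for these 3 primary granule genes was not tested. In the near-empty droplets (at most 100 UMIs) of the unfiltered libraries, Camp was 3121 and 575 CPM in ND replicates 1 and 3 and 566 and 326 CPM in MCDHFD replicates 1 and 2. The 2 ND replicates with the most Camp in B cells, 1 and 2, also had the most in monocytes. In the monocyte/macrophage gate those levels rested on single cells with 100 or more Camp UMIs, 2 in replicate 1 and 1 in replicate 2.

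In T cells Chil3 rose, from 2.43, 1.53 and 1.23 CPM on ND to 6.15, 8.20 and 28.0 CPM on MCDHFD (log2 2.60, SE 0.398, adjusted p = 0.00624, edgeR). It was 1 of 5 members tested, against 4.85% of 11909 genes. The Chil3 call was lost in the model of diet alone (adjusted p = 0.544, edgeR), with the replicate block (1) and without ND replicate 3 (0.0534), and with cells of more than 1 gate kept the difference was -1.41. T cells with a Chil3 UMI made up 0 to 0.281% of thinned cells on ND and 0.380 to 0.995% on MCDHFD, far fewer than among monocytes. Chil3 in B cells did not follow, at 24.3, 31.9 and 1.75 CPM on ND and 6.40, 13.6 and 9.93 CPM on MCDHFD. In near-empty droplets it was 244 and 79.7 CPM on ND and 106 and 195 CPM on MCDHFD.

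The diet difference in monocytes was then compared with that in neutrophils of the same libraries. No gene of 8589 passed in this interaction test (0%, edgeR), although 928 genes were below 0.05 before adjustment (edgeR), and 82 genes were called with DESeq2. Chil3 and Mmp8 were the members with the smallest p: the monocyte change exceeded the neutrophil change by 4.22 for Chil3 (SE 0.566) and by 3.09 for Mmp8 (SE 0.443), each with an adjusted p of 0.0728 (edgeR). DESeq2 called both, at 4.13 and 2.98. For Lcn2 the difference was 2.33 (SE 1.57, adjusted p = 0.636, edgeR), and for Camp -1.06 (SE 1.94). A fit added after the data were seen left out neutrophils holding a Csf1r or Ccr2 UMI. In it Chil3 (4.88) and Mmp8 (2.91) passed at an adjusted p of 0.00797 (edgeR), where 141 of 8247 genes were called. That fit also left out Camp-low neutrophils that held Chil3. Against the change in B cells, Lcn2 was called, at 3.16 (SE 0.551, adjusted p = 0.0313, edgeR), 1 of 10 members where 0.202% of 11908 genes were called, and Chil3 at 2.96 (adjusted p = 0.183) was not. By their own tests Lcn2 differed by -1.04 in monocytes/macrophages and -3.25 in B cells, so both fitted values were below 0. The Lcn2 call was lost in DESeq2 (adjusted p = 0.258), in the model of diet alone (0.184, edgeR), with cells of more than 1 gate kept (0.745) and without ND replicate 2 (0.0607).

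The place where a gene's UMIs were found also moved, a share that depends on the number of cells in each gate as well. Monocytes and macrophages were 0.809, 1.43 and 0.988% of kept cells on ND and 1.45, 2.12 and 1.36% on MCDHFD. Cells in no gate were 11.8, 10.2 and 14.5% against 23.0, 22.5 and 13.8%, and neutrophils 6.35, 3.97 and 2.94% against 4.91, 6.26 and 2.74%. Of all Chil3 UMIs in kept cells, neutrophils held 60.5, 63.6 and 85.7% on ND and 27.6, 31.7 and 25.8% on MCDHFD. Monocytes and macrophages held 1.37, 1.12 and 1.37% on ND and 12.1, 22.8 and 25.2% on MCDHFD. Cells in no gate held 21.5, 14.2 and 6.00% against 47.8, 38.2 and 31.7%, more than any gate held on MCDHFD. Most of those cells had fewer than 5 S100a8 UMIs and no Kit or Cd34, and Chil3 in them was 79.5, 122 and 46.0 CPM on ND and 247, 424 and 524 CPM on MCDHFD. The neutrophil, monocyte/macrophage and ungated shares of Chil3 did not overlap between diets. Mmp8 in monocytes and macrophages made up 0.114, 2.13 and 0.840% of its UMIs on ND and 4.36, 8.89 and 13.5% on MCDHFD, while neutrophils kept 62.1 to 90.2%. Camp had no such shift: neutrophils held 64.9, 67.5 and 92.9% on ND and 72.7, 98.6 and 40.0% on MCDHFD. Mpo varied most from library to library: neutrophils held 66.2, 23.6 and 98.2% of its UMIs on ND and 5.27, 2.05 and 99.7% on MCDHFD, and cells in no gate held 0.140 to 95.9%.

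**Figure D5:**
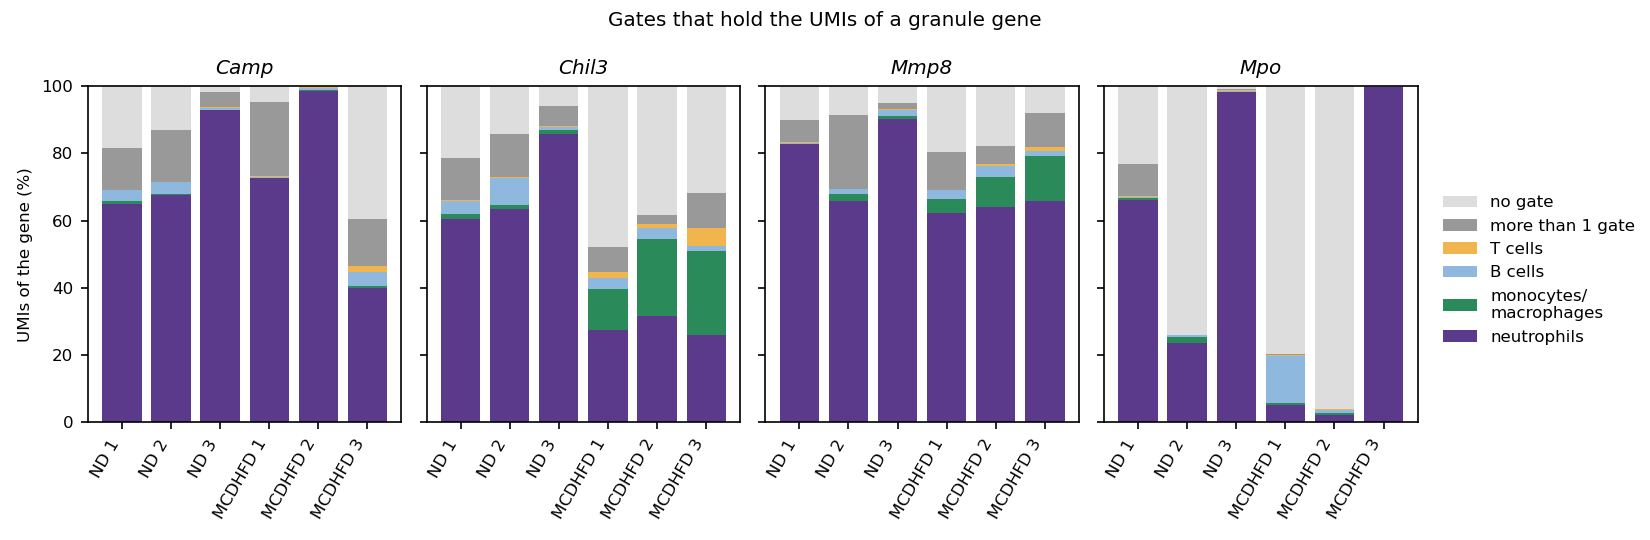
Percent of the UMIs of Camp, Chil3, Mmp8 and Mpo found in each gate, in cells of more than 1 gate and in cells of no gate, as stacked bars by library. The monocyte/macrophage part of Chil3 is 1.12 to 1.37% on ND and 12.1 to 25.2% on MCDHFD.

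Other granule and maturation genes, from lists chosen with results of these data known, are given for comparison. In neutrophils their counts stand against the 8.81% of all genes called, which was 735 genes, whereas the model of diet alone called 4 and the replicate block 0. Of 11 other primary granule and early genes in neutrophils, 4 fell and none rose, with a median of -1.55 against -0.01 for all genes: Mgst2 (-2.66), Hk3 (-0.94), Cd63 (-1.55), a granule membrane protein, and Serpinb1a (-1.71), an inhibitor of neutrophil serine proteases. Of 19 other specific and gelatinase granule genes, a list that holds the gate gene S100a8, 7 fell and none rose (median -0.86), among them Olfm4 (-1.74), Cybb (-1.26), the catalytic subunit of the phagocyte oxidase, Wfdc21 (-1.16) and Cd177 (-1.52). Of 12 transcription factors of granulocyte maturation, Cebpe fell (-1.88, SE 0.393, adjusted p = 0.0278, edgeR) and Cebpb rose (1.01, SE 0.21, adjusted p = 0.0277, edgeR). The median of the factors was -0.18. Of 20 mature neutrophil genes, 5 rose and none fell (median 0.48): Ifitm1 (2.49), Ccl6 (1.38), the formyl peptide receptor Fpr1 (1.25), Ifitm2 (1.10) and Clec4e (1.00).

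In monocytes and macrophages 1 gene of these 4 lists passed, Fpr1, where 0.845% of 6032 genes were called. Fpr1 rose by 3.81 (SE 0.755, adjusted p = 0.0497, edgeR) and was 1 of 10 mature neutrophil genes tested. A gene can enter this test by its MCDHFD counts alone, so the 1 of 10 does not measure how the list changed. None of 4 primary, 12 specific or 9 transcription factor genes passed there. Slpi (1.63), a protease inhibitor, and Clec4e (1.95) had adjusted p of 0.068 and 0.0546 (edgeR). Over the 24 sums of 6 libraries and 4 gates, the genes whose log2 level was most like the mean of the 10 members were Cd63 (Pearson r = 0.981), S100a8 (0.978), S100a9 (0.973), Mapk13 (0.970) and Cebpe (0.966), out of 6895 compared. S100a8 is a gene of the neutrophil gate, so its likeness is set by the gate. The sums share libraries and gates, so the r describes them and has no p.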

How the data were processed

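The deposited files hold raw UMI counts per gene and cell barcode, made by the authors with Cell Ranger (version 9.0.1 in 4 libraries and 7.2.0 in 2, per the file headers), while the submitters' processing notes name Cell Ranger 9.1.0, Seurat 4.3.0 and the build mm10. Library totals ran from 21259837 to 62238012 UMIs. Cells of at least 1000 UMIs and at most 10% mitochondrial UMIs were gated on marker UMIs, and cells of more than 1 gate were left out; doublets were otherwise removed only in an alternative with Scrublet (scanpy 1.11.5), which marked none in the 2 libraries with filtered lists. Counts were summed per library and gate and tested with edgeR 4.0.16 (R 4.3.3) by its quasi-likelihood test, with TMM factors, filterByExpr, the terms diet and form of the barcode list, and Benjamini-Hochberg adjustment over all genes tested. Interaction tests kept the library as a block. CPM is the gene's sum per 1000000 UMIs of the gate. Replicates were separate libraries by their labels, and no pair of the same diet agreed within sampling noise (lowest chi-square per degree of freedom 3.23). On simulated counts, 32% of genes changed by 1 log2 unit and 92% of those changed by 2 were recovered among the 8343 neutrophil genes, 40% and 94% among the 6032 of monocytes, and 6% and 51% among the 8589 of their interaction. The simulation gave every gene the common dispersion (0.0494, 0.0413 and 0.0449) and no effect of list form. These rates therefore do not hold for members that vary more, such as Mpo in neutrophils (SE 2.65). The members, lists and gates were chosen with earlier results of these data known. All 10 members are named, with up to 4 genes of smallest p per list and the 5 genes most alike. Coordinates are those of GENCODE vM21, and 0 columns belonged to no sample. Alternatives were DESeq2 1.42.0, upper-quartile factors, no low-count filter, other cell limits and gates, a replicate block and leaving out libraries. Near-empty droplets had at most 100 UMIs.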

Additional observations from a re-analysis of the deposited data

Results flagged for a closer look

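Chil3 was lower on MCDHFD in every neutrophil library and higher in every monocyte/macrophage library, so the diets separated in opposite directions in the 2 cell types. The monocyte/macrophage change minus the neutrophil change was 4.22 on the log2 scale, with an adjusted p of 0.0728 in the edgeR interaction test, which missed the threshold. Camp-low neutrophils went the same way as monocytes: Chil3 in them was higher on MCDHFD in 3 of 3 libraries, and those of them with at least 10 Chil3 UMIs all held a Csf1r, Ccr2 or Ms4a6c UMI. In the whole neutrophil gate, 25.7 to 34.2% of cells on ND and 35.7 to 44.1% on MCDHFD held a Csf1r or Ccr2 UMI. Leaving out all neutrophils with a Csf1r or Ccr2 UMI gave a Chil3 difference of 4.88, and leaving out neutrophils of 10 or more Camp UMIs gave -2.51.

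Lcn2 changed differently in monocytes/macrophages and in B cells, by 3.16 on the log2 scale (edgeR interaction test, adjusted p = 0.0313). Lcn2 did not pass in either cell type by its own test, where its difference was -1.04 in monocytes/macrophages and -3.25 in B cells. In these main fits the positive value thus marks a larger fitted fall in B cells and not a fitted rise in monocytes/macrophages. The sign in monocytes/macrophages depended on the fit. It was positive without ND replicate 1, with the replicate block and without cells of 5 or more S100a8 UMIs, and negative without MCDHFD replicate 3. The largest Lcn2 values were in ND replicate 1 in both, at 690 CPM in monocytes/macrophages and 67.3 CPM in B cells, and without that library the difference was 5.33.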

How the results depend on the processing

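Of 900 log2 differences recomputed for single members, 692 kept direction and side of the threshold, 90 newly passed, 50 no longer passed and 68 reversed. Called members, against 6 in neutrophils, 1 in monocytes/macrophages, 0 in B cells, 1 in T cells, 0 in the monocyte-neutrophil and 1 in the monocyte-B interaction, numbered as follows. With diet alone they were 0 (neutrophils), 0 (monocytes/macrophages), 0 (T cells), 1 and 0 (the interactions, 25 of 8589 and 8 of 11908 genes called). DESeq2 gave 3 in monocytes/macrophages (1 higher, 2 lower, 76 of 6032 genes called) and 2 in B cells (lower, 1016 of 13403). It gave 2 (higher, 82 of 8589) and 0 in the interactions, and 6 in neutrophils (lower, 751 of 8343), with Mpo in place of Camp. With no low-count filter, monocytes/macrophages had 8 (2 higher, 6 lower, 372 of 15368 genes called) and B cells 6 (1 higher, 5 lower, 1008 of 22155). T cells had 2 (1 higher, 1 lower, 1288 of 21225). The interactions had 5 (4 higher, 1 lower, 322 of 18156) and 3 (2 higher, 1 lower, 180 of 22310). Keeping cells of more than 1 gate gave 4 in monocytes/macrophages (1 higher, 3 lower, 115 of 7045 genes called) and 0 in the monocyte-B interaction. The Chil3 difference in T cells then became -1.41. The 4 unfiltered libraries gave 0 in monocytes/macrophages, 4 in B cells (lower, 2671 of 13454 genes called) and 4 in T cells (1 higher, 3 lower, 1202 of 12359). In the interactions they gave 2 (higher, 27 of 9518) and 4 (2 higher, 2 lower, 123 of 13200). Monocytes/macrophages without S100a8 of 5 or more gave 3 there and 3 and 2 in the interactions, all higher, with Lcn2 at 2.82. In these fits 108 of 5640, 40 of 8623 and 39 of 11783 genes were called. Leaving out 1 library gave 0 to 9 in neutrophils, 0 to 2 in monocytes/macrophages, 0 to 3 in B cells, 0 to 4 in T cells, and 0 to 2 and 0 to 3 in the interactions. The number of all genes called moved as well, from 0 of 9162 to 2060 of 9146 in neutrophils and 6 of 6176 to 44 of 6101 in monocytes/macrophages. It ran from 36 of 14065 to 2469 of 13677 in B cells and 145 of 12577 to 1192 of 12213 in T cells. In the interactions it ran from 0 of 8954 to 27 of 9424 and from 15 of 12423 to 101 of 12912. Not all member calls were higher: the 1 call in monocytes/macrophages without ND replicate 3 was lower. In monocytes/macrophages, differences then ran from -10.38 to 0.64 for Ngp and from -2.57 to 3.59 for Lcn2, both highest without ND replicate 1 and lowest without MCDHFD replicate 3. Over all genes, the 735 calls in neutrophils became 4 with diet alone, 0 with the block and 1586 with no filter. The cause was not tested.

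With the replicate block, 0 members passed in neutrophils, 0 in monocytes/macrophages and 0 in T cells, and Lcn2 in monocytes/macrophages was 0.55. The labels do not say whether the numbers pair the libraries. Correlations of same-numbered deviations were 0.263, -0.346 and -0.381 in neutrophils and 0.145, -0.335 and -0.159 in monocytes/macrophages. In B cells they were 0.698, -0.795 and -0.820, and in T cells 0.705, -0.800 and -0.821. ND replicate 2 and MCDHFD replicate 3, the libraries with filtered lists, correlated at 0.445 in neutrophils and 0.842 in B cells. These 2 libraries weigh on numbers 2 and 3, so the correlations cannot decide the pairing.

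1 alternative added after seeing the data left out neutrophils of 10 or more Camp UMIs and gave 0 called members. In neutrophils it gave Ngp 0.36, Lcn2 1.78, Chil3 5.19 and Mmp8 1.10, and in the monocyte-neutrophil interaction Lcn2 -1.06 and Chil3 -2.51. Another, also added then, left out neutrophils with a Csf1r or Ccr2 UMI. It gave 2 called members in that interaction, where 141 of 8247 genes were called. The last widened the monocyte gate. Unthinned shares in monocytes/macrophages reversed for Ngp (-5.02 percentage points) and Mpo (-1.22). Depth limits Fcnb, Elane and Mpo in monocytes/macrophages, with at most 39 UMIs per library.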
